A study of Homo sapiens with 4 samples.

Results

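The zinc finger genes of human chromosome 19 were examined for open chromatin in 786-O cells with and without DEK. The members are the protein-coding genes on that chromosome whose symbol is ZNF followed by a number, 250 of the 19970 protein-coding genes on chromosomes 1 to 22 and X in the RefSeq table of GRCh38.p14. The members were chosen by symbol and chromosome, which use no measured value. The family as a whole was selected on calls and −log10 p ranks of these same peak lists seen in earlier results, so every value by genotype is a description with no test. 786-O is a human renal carcinoma line, and its chromatin was profiled by ATAC-seq, which uses a transposase to tag accessible DNA. The 2 WT control libraries are negative controls with Cas9 and a wild-type genotype, and the 2 DEK KO libraries are DEK knockout cells. All groups share the Cas9-expressing background, which was established as a clone, and the knockout cells were made by infection with DEK guide RNA virus and single-cell sorting. No label tells whether replicates of a genotype were separate clones or cultures, and the spread between them may be technical. With 2 libraries against 2, the smallest two-sided p of an exact permutation test is 0.333, and no such test can pass 0.05.

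Most proteins of this family bind DNA through a row of C2H2 zinc fingers, and many also carry a KRAB domain. The KRAB domain recruits TRIM28, which brings SETDB1, an enzyme that places the silencing mark H3K9me3, and HP1 proteins that bind this mark. Many KRAB zinc finger proteins silence transposable elements. Their genes stand in tandem clusters on chromosome 19 that arose by repeated duplication, and the 3′ ends of many of them are themselves covered by H3K9me3. DEK is an abundant nuclear protein that attaches to DNA and handles histones as a chaperone.

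Peaks from the 4 deposited lists that overlapped by 1 bp or more were joined into regions. A region was taken for a member where it overlapped the gene's span plus 10 kb on each side. List length was 89563 and 90409 peaks for the WT controls, and 102760 and 99508 for DEK KO (replicates 1 and 2 of each). Read depth is unknown. Of 6 markers of renal lines, PAX8, VIM and CDH2 had a peak at their start in all 4 lists while PAX2, CA9 and NNMT had none. Of 6 markers of other cell types, only SNAP25, a neuronal gene, had a start peak in all 4 lists, and PTPRC, CD3E, ALB, CDH5 and PECAM1 had none. SNAP25, NNMT, CD3E, CDH5 and PECAM1 have no RefSeq-listed start, so a peak near either gene end was taken for them.

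Promoters from both ends of the range of accessibility are printed first. Each sequence covers the 200 bases before the RefSeq-listed start of the gene, 5′ to 3′ on the gene's strand, in the GRCh38.p14 build, with every CG in capitals. ZNF91, which represses a class of primate retrotransposons, lies at chr19:23395472-23395671 on the minus strand and was open in all 4 lists. ZNF208, at chr19:22010944-22011143 on the minus strand, was called in none, although its promoter is close to that of ZNF91 in sequence. ZNF444, at chr19:56141087-56141286 on the plus strand, had the highest-ranked start of all members. ZNF154, at chr19:57709205-57709404, and ZNF677, at chr19:53254824-53255023, both on the minus strand, were called in no list. ZNF274, at chr19:58182861-58183060 on the plus strand, binds the 3′ ends of other zinc finger genes and recruits SETDB1 to them. ZNF577, at chr19:51887952-51888151 on the minus strand, had the largest difference in start rank between the genotypes. ZNF154 and ZNF677 are shown as a CpG-poorer and a CpG-rich promoter that were not called, and were chosen after their values were seen.
ZNF91: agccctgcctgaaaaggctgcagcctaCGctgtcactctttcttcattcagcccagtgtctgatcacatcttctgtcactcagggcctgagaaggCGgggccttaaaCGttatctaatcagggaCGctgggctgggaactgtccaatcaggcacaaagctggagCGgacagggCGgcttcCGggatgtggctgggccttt
ZNF208: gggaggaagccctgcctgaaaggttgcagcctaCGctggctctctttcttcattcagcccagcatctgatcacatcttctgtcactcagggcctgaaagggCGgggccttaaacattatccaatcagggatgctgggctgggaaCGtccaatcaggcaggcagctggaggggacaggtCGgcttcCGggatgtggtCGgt
ZNF444: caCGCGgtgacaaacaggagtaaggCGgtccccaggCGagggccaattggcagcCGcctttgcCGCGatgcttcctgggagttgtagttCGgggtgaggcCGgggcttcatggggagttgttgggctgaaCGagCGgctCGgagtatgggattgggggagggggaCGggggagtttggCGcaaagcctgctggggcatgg
ZNF154: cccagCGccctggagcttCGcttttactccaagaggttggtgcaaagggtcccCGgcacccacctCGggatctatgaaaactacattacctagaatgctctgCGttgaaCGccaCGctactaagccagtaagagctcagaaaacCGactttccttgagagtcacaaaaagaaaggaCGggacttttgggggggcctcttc
ZNF677: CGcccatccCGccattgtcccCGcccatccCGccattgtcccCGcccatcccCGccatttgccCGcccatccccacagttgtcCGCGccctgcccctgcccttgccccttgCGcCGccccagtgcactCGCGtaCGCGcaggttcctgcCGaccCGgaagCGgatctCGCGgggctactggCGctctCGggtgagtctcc
ZNF274: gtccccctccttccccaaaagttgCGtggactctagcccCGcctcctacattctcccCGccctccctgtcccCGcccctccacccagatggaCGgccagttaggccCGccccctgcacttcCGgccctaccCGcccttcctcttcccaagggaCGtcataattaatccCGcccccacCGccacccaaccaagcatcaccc
ZNF577: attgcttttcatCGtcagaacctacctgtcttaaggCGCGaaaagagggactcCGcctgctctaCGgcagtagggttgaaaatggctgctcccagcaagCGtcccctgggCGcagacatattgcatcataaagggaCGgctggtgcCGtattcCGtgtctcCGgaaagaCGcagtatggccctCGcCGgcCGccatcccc

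The starts of most members were open whether or not DEK was present, where open means that a peak was called. A start region is the strongest peak within 1 kb of the RefSeq-listed start, or of either gene end for genes without a listed start. The latter were 31 of the members and 4159 of all protein-coding genes. A start region was called in all 4 lists for 201 of 250 members (80.4%). The corresponding share was 57.1% over all protein-coding genes, 49.0% over the 1201 other genes of chromosome 19 and 74.9% over the 267 numbered ZNF genes on other chromosomes. Another 41 members (16.4%) had a start region in no list, against 34.6% of all genes. The remaining members were 6 called in 3 of the 4 lists and 2, ZNF175 and ZNF587B, called in exactly 1 list of each genotype. By library, 205 and 208 members had a start region in the WT controls and 206 and 207 in DEK KO. No member had a start region in both DEK KO lists and neither control list, where the share over all genes was 0.796%. No member had the converse pattern, where the share over all genes was 0.436%.

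Several members share a start. The 201 members rest on 190 distinct start regions, because 22 of them share 11 regions. These include divergent neighbours such as ZNF565 and ZNF146, ZNF461 and ZNF567, and ZNF569 and ZNF570, and readthrough genes such as ZNF765-ZNF761. Such pairs are not independent measurements.

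The strength of a peak was expressed as its percentile of −log10 p within its own list, where 100 is the strongest peak of that list. Peaks with tied p-values share a percentile. The median start percentile of the 201 members was 84.9 and 87.5 in WT control replicates 1 and 2 and 85.5 and 87.9 in DEK KO replicates 1 and 2. Over all genes called in every list it was 82.4, 84.0, 83.4 and 84.6 in the same order. The authors' fold enrichment at these member starts had medians of 10.6, 10.3, 9.65 and 11.4, and over all genes 8.01, 7.64, 7.42 and 8.86. The member peaks were thus higher above background in each list, and they were somewhat narrower, with median widths of 958 to 995 bp against 1046 to 1089 bp over all genes. Few member starts were weak: 6 of 201 (2.99%) had a mean percentile below 50, against 10.2% over all genes. The share at or above 90 was 32.3% for members and 32.5% over all genes.

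**Figure D1:**
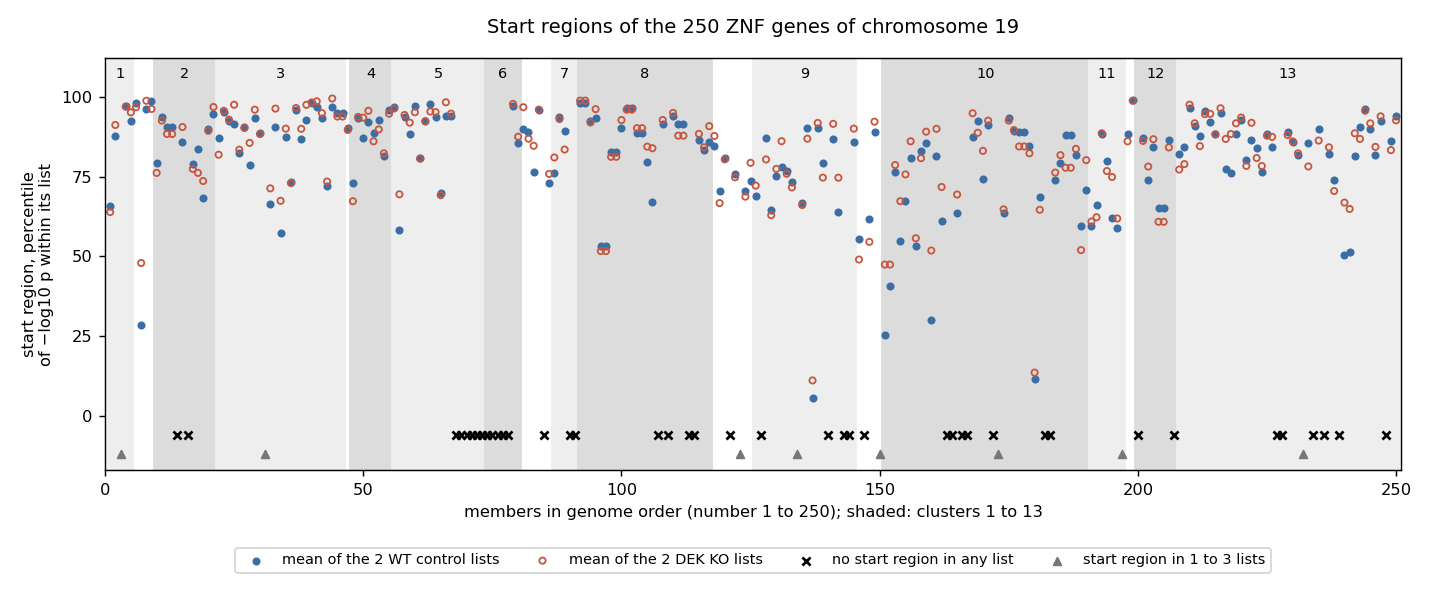
Start regions of the members in their order along chromosome 19: the x axis is the order of the genes, the y axis the percentile of −log10 p within a list, averaged over the 2 lists of a genotype (filled, WT control; open, DEK KO). Crosses mark members with no start region in any list, triangles those called in 1 to 3 lists, and shading the 13 clusters. Most of the called members lie above 50, and an unbroken run of 11 members has no start region in any library.

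The strongest start belonged to ZNF444, with percentiles of 99.0 and 98.7 in the WT controls and 98.4 and 99.0 in DEK KO. ZNF146, which has zinc fingers but no KRAB domain, shares its start with ZNF565 and reached 97.0, 99.3, 98.6 and 99.0 in WT control replicates 1 and 2 and DEK KO replicates 1 and 2. ZNF442 reached 99.0, 97.0, 98.6 and 97.8 in the same order. The genotypes overlapped at all of these, and all 4 libraries placed them among their strongest peaks. At the other end, ZNF234 had percentiles of 5.57 and 5.99 in the WT controls and 11.9 and 10.5 in DEK KO, and with all lists at equal length it was no longer called in every list. ZNF415 had 17.1, 5.99, 16.8 and 10.5, with overlapping genotypes. ZNF175 was called only in WT control replicate 1, at 38.9, and DEK KO replicate 2, at 28.9. That call depends on the 1 kb limit. A region 1025 bp from the ZNF175 start (chr19:51572308-51573637) was called in all 4 lists. Its percentiles were 62.7 and 72.8 in the WT controls and 82.2 and 94.3 in DEK KO. ZNF91 stood at 88.6, 82.4, 85.8 and 89.2, and ZNF93, which acts on LINE-1 elements, at 87.6, 89.7, 82.0 and 90.1. Neither separated the genotypes.

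The longest run of neighbouring members without a start region held 11 genes. ZNF43, ZNF208, ZNF257, ZNF676, ZNF729, ZNF98, ZNF492, ZNF99, ZNF723, ZNF728 and ZNF730, from 21804946 to 23147221 (1.34 Mb), had no peak in any of the 4 lists, neither at their starts nor anywhere in their windows. The run was noticed after the values were seen. The whole interval without a region reached from 21767786 to 23249423 (1.48 Mb) and contained no other protein-coding gene. It was the second longest on chromosome 19, after one of 3.44 Mb (24140528 to 27579600) that contains no protein-coding gene. Its neighbours were open on both sides. ZNF100, the member just before it, had start percentiles of 91.8 and 96.0 in the WT controls and 95.3 and 94.2 in DEK KO. ZNF724, the member just after it, had 96.9 and 97.5 in the WT controls and 99.2 and 96.3 in DEK KO, and its start region ends the interval. ZNF91 is the member after that.

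The promoters of this run resembled those of called members in sequence. Over the 300 bases that RefSeq lists per promoter (250 before the start and 50 from it), each of the 6 run members with a listed start was aligned globally to every other listed member called in all 4 lists, a comparison chosen after the calls were seen. The best matches had identities between 75.2% and 86.0%, with a median of 80.6%. ZNF208 matched ZNF91 best, at 86.0%, ZNF257 matched ZNF85 at 82.1%, and ZNF43 matched ZNF714 at 81.6%. For the 25 other listed members with no start region, the best match to a called member had a median identity of 56.1%, and for the 182 listed members called in all 4 it was 59.4%. In the printed 200 bases, ZNF91 held 7 CG dinucleotides and ZNF208 held 6. How uniquely reads can be placed in these duplicated genes was not tested.

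CpG content of called and uncalled members overlapped. Promoters of members held a median of 6.67 CpG per 100 bases, against 7.33 over 15811 listed promoters. The median was 7.0 for the 182 listed members called in all 4 lists, 4.17 for the 6 listed members of the uncalled run (3.33 to 5.33) and 6.67 for the 25 other uncalled members. Of those 25, 8 lay above the median of all promoters: ZNF541, ZNF677, ZNF135, ZNF540, ZNF582, ZNF835, ZNF792 and ZNF229. ZNF677, printed above with 22 CG in 200 bases, reached 11.3 per 100 bases over the listed promoter and ZNF135 reached 10.7. ZNF100 and ZNF91 had 3.33 and 3.67, inside the range of the uncalled run, and both were called in every list. Including the run, 20 members had no region at all in their window, among them ZNF154, ZNF671 and ZNF677, genes known for promoter methylation in tumours. Another 18 of the 41 had a region shared by all 4 lists elsewhere in the window.

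Short motifs were counted on both strands of the 300-base promoters. CCGGAAG, the core bound by ETS factors, was in 45.7% of the 219 listed member promoters and 14.2% of all promoters. CCAAT was in 53.4% against 36.3%, and GGGCGG, the core of GC boxes, in 67.6% against 58.5%. TATAAA was in 1.83% against 9.64%, and CACGTG, the E-box core, in 4.11% against 8.87%. TGACGTCA, the NRF1 palindrome and AAGATGG were in 3.20%, 2.28% and 7.76% of member promoters and 2.59%, 1.76% and 6.40% of all. None of the motifs searched contains another. CCGGAAG was in 44.0% of listed members called in all 4 lists and in 51.6% of those called in none, including all 6 listed members of the uncalled run. A match describes only the letters, and promoters of duplicated genes are not independent of each other.

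Open regions of the members lay at gene starts more often than those of their chromosome neighbours. The windows covered 10.38 Mb and held 436 of the 138467 merged regions, which is 42.0 per Mb against 79.1 for other genes of chromosome 19. Of the 436, 203 (46.6%) lay within 1 kb of a start, 140 (32.1%) elsewhere inside a gene, 83 (19.04%) in the flanks and 10 (2.29%) at a 3′ end. For the other genes of chromosome 19, the shares of 2678 regions were 25.5%, 49.5%, 19.3% and 5.64% in that order. Windows overlap: 103 regions fell into windows of several members and 88 also into the window of a gene outside the family. Counted by gene, 15 of 219 members (6.85%) had a region within 1 kb of their 3′ end, against 246 of 966 other chromosome 19 genes (25.5%). Leaving out regions that also lay at a listed start, the counts were 11 (5.02%) and 166 (17.2%).

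**Figure D2:**
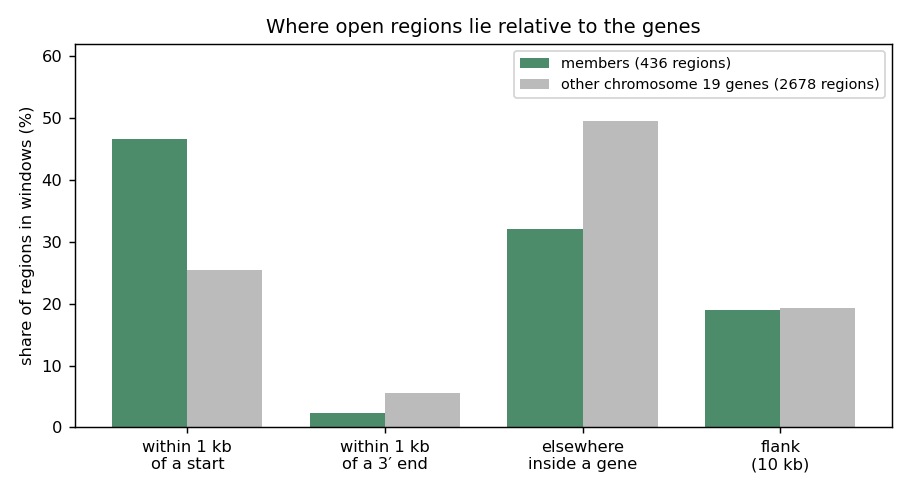
Share of open regions by place, for the members (436 regions) and for the other genes of chromosome 19 (2678 regions); the y axis is the share of all regions in the windows in percent. Starts took 46.6% of the members' regions and 25.5% of the other genes' regions.

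The members fall into 13 clusters of at least 5 genes chained at gaps of up to 200 kb, plus 26 scattered members. The clusters differed in how many of their starts were open. All 8 members of the cluster from ZNF101 to ZNF486 (19.67 to 20.2 Mb) and 24 of 25 in the cluster from ZNF653 to ZNF791 (11.48 to 12.63 Mb) had a start region in all 4 lists. The lowest share was 2 of 7 (28.6%) in the cluster from ZNF492 to ZNF91 (22.63 to 23.4 Mb), which holds the later part of the uncalled run. The neighbouring cluster from ZNF737 to ZNF98 (20.53 to 22.42 Mb) had 12 of 18. Among its open members the starts were strong, with median percentiles of 91.8 and 94.1 in the WT controls and 94.4 and 93.6 in DEK KO. The weakest open starts were in the cluster from ZNF628 to ZNF580 (55.48 to 55.65 Mb), at 62.3, 72.0, 70.3 and 74.4. That cluster has short genes, with a median span of 4.08 kb, and the highest density, 145.6 regions per Mb. The lowest density was 14.8 per Mb, in the cluster from ZNF492 to ZNF91.

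**Figure D3:**
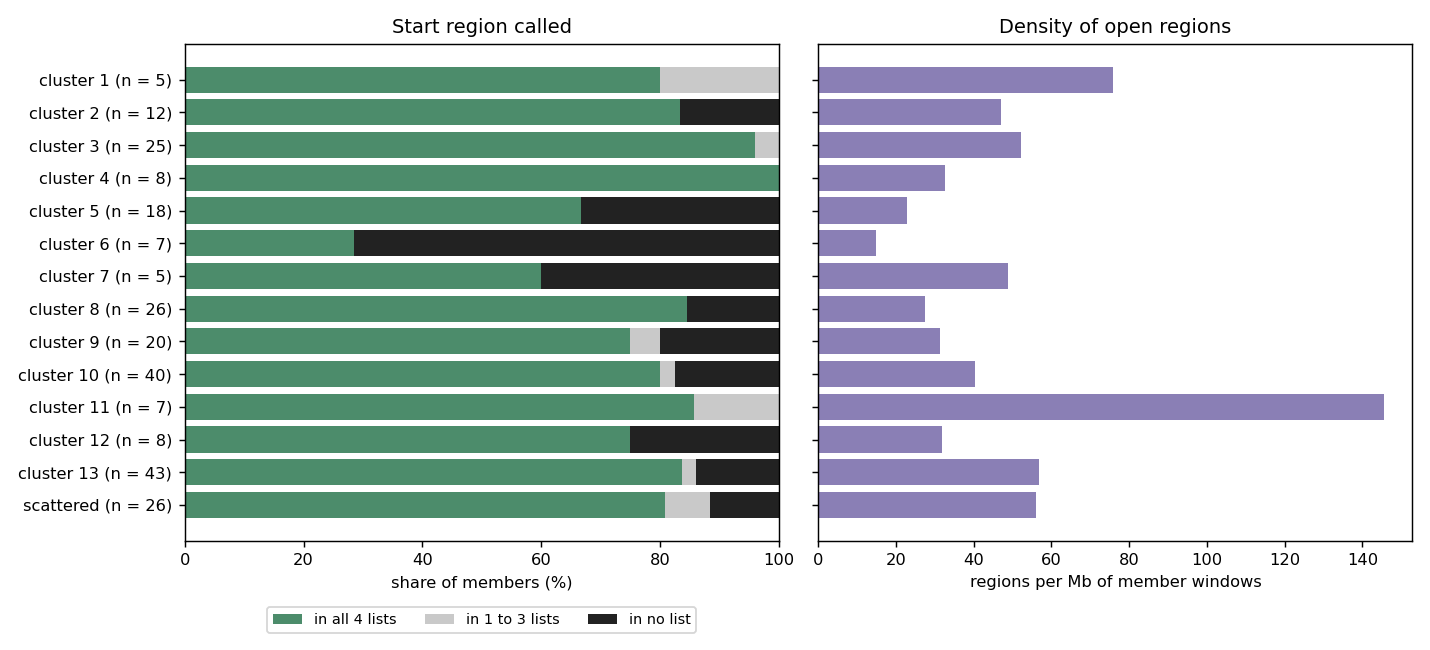
Left, share of members in each cluster with a start region in all 4 lists, in 1 to 3 lists or in none, in percent; right, merged regions per Mb of member windows. Clusters are numbered along the chromosome: cluster 6 (ZNF492 to ZNF91) has the lowest share and density, and cluster 11 (ZNF628 to ZNF580) the highest density.

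Start ranks differed little between the genotypes on balance. The median difference between the mean DEK KO and mean WT control percentile was 0.70 points over the 201 members, with quartiles of −1.61 and 3.16. The same median was 0.40 over all genes, 2.16 over the other genes of chromosome 19 and 0.56 over ZNF genes elsewhere. Both DEK KO percentiles lay above both controls for 50 members (24.9%), against 22.7% of all genes. Both lay below for 21 members (10.4%), against 16.0% of all genes. Over the other genes of chromosome 19 the shares were 31.8% higher and 5.61% lower. Over ZNF genes elsewhere they were 21.0% and 14.5%. The other 130 members overlapped. The sign of the median turned with the scale: it was −0.76 with lists of equal length, where all genes stood at −0.90, and −1.17 with percentiles of fold, where all genes stood at 0.16. With equal lengths 30 of 200 members were higher and 43 lower, where all genes had 14.55% and 24.34%. Of the 50 higher and 21 lower members, 30 and 21 kept their side with equal lengths. With percentiles of fold 31 of 201 members were higher and 44 lower, where all genes had 19.04% and 16.39%.

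By cluster, the median start difference lay between −1.74 points (ZNF582 to ZNF835, 6 called members) and 2.21 points (ZNF577 to ZNF331, 32 called members). In the cluster from ZNF653 to ZNF791, 9 members were higher in both DEK KO lists and 0 lower, and with lists of equal length 5 and 0. The cluster from ZNF577 to ZNF331 had 10 higher and 4 lower, which became 8 and 6 with equal lengths. The largest cluster, ZNF264 to ZNF446 with 43 members, had 11 higher and 6 lower, and with equal lengths the balance turned to 4 higher and 10 lower. Each cluster held 0 to 4 KO-only regions, and the scattered members held 7.

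**Figure D4:**
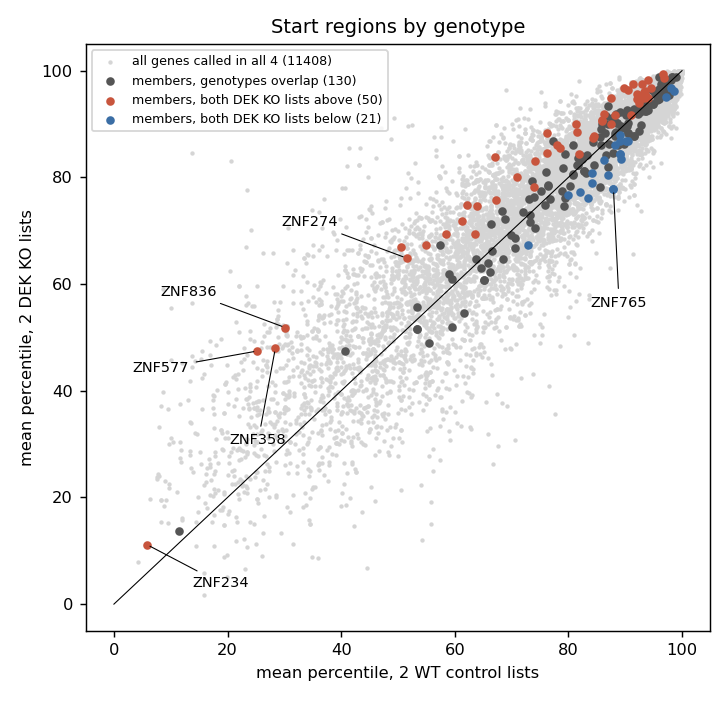
Mean start percentile in DEK KO (y axis) against WT control (x axis) for the 201 members called in all 4 lists (red, both DEK KO lists above; blue, both below; dark grey, overlapping) over all 11408 genes called in all 4 (light grey), with the diagonal marking equality. Most members lie close to the diagonal near the upper end, and the widest departures are among weak starts.

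ZNF577 showed the largest difference of all members called in every list. Its start percentiles were 24.4 and 26.1 in the WT controls and 45.2 and 49.7 in DEK KO, a difference of 22.2 points, with SDs of 1.16 and 3.22. The authors' fold enrichments were 5.07 and 4.72 against 6.52 and 7.94. ZNF836, in the same cluster, had 24.4 and 35.9 against 54.0 and 49.7. ZNF358 had 32.3 and 24.5 against 52.5 and 43.4. In all of these the starts were weak in the controls and of middle rank in DEK KO.

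ZNF585A had percentiles of 55.6 and 78.5 in the WT controls and 84.3 and 83.5 in DEK KO, so that the controls differed from each other by more than the second control did from DEK KO. ZNF329 had 48.5 and 52.5 against 57.8 and 75.9, and its genotypes overlapped with lists of equal length. ZNF274, whose protein recruits SETDB1 to zinc finger genes, had 52.9 and 50.1 against 66.0 and 63.7, a difference of 13.4 points with SDs of 1.92 and 1.63. Its fold enrichments were 6.37 and 5.74 against 6.97 and 7.39. The ZNF274 genotypes stayed apart with lists of equal length and with percentiles of fold, by 9.09 and 11.4 points. ZNF331, an imprinted gene, had 72.1 and 69.8 against 84.0 and 76.3, and kept its side under both scales.

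Among members whose genotypes did not overlap, the largest differences in the other direction were smaller. ZNF813, ZNF587, ZNF114 and ZNF296 had differences of −7.46, −7.31, −7.05 and −6.45 points, but their genotypes overlapped. ZNF765, which shares its start with the readthrough gene ZNF765-ZNF761, had percentiles of 86.4 and 89.5 in the WT controls and 75.8 and 79.8 in DEK KO, a difference of −10.2 points. ZNF121 had 79.6 and 87.4 against 75.0 and 77.3. ZNF45 had 86.4 and 87.7 against 79.6 and 81.1. All of these were still well inside the upper part of each list. ZNF599 had 88.2 and 90.1 against 85.2 and 81.8, and ZNF101 had 72.6 and 73.2 against 67.7 and 66.9. ZNF765, ZNF121, ZNF45, ZNF599 and ZNF101 kept their side with equal lengths and with fold. CCGGAAG was in 16 of the 21 promoters of lower members (76.2%) and 18 of the 47 listed promoters of higher members (38.3%), beside 45.7% of all listed member promoters. Counting identical promoters once, it was in 14 of 19 lower ones (73.7%). With lists of equal length the shares were 22 of 37 lower (59.5%) and 10 of 27 higher (37.0%), and with percentiles of fold 22 of 43 (51.2%) and 10 of 29 (34.5%). All motifs searched were split by direction with the full lists, and CCGGAAG had the widest contrast among them. GGGCGG was in 81.0% of lower and 66.0% of higher members, beside 67.6% of all listed members. CCAAT went the other way, with 52.4% of lower and 70.2% of higher members, beside 53.4%. Each remaining motif was in at most 8.51% of either set.

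**Figure D5:**
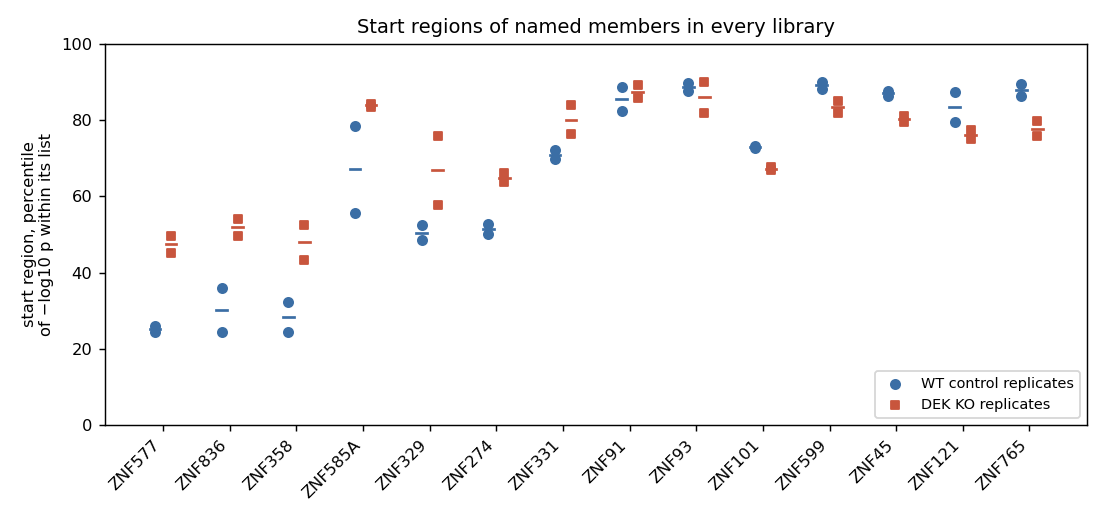
Start percentile of −log10 p within each list (y axis) for named members, with a point per library and a line at the mean of the 2 replicates of a genotype. ZNF577, ZNF836 and ZNF358 are weak in the controls and higher in both DEK KO lists, and ZNF765, ZNF121 and ZNF45 are lower in both.

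Over all member windows, 24 of the 436 regions (5.50%) had a peak in each DEK KO list and in neither control (KO-only), against 6.26% of all regions and 5.46% of regions in windows of protein-coding genes. Only 2 (0.459%) were called in both controls and neither DEK KO list (WT-only), against 2.57% and 2.6%. KO-only regions were thus 92.3% of the one-genotype regions, as a description of these lists. The corresponding shares were 81.0% for other chromosome 19 genes, 78.9% for ZNF genes elsewhere and 67.7% over windows of all genes. The count of WT-only regions rested on few calls. It was 4 with lists of equal length, where the KO-only share was 81.0%. Leaving out WT control replicate 1 gave 14 WT-only and 27 KO-only regions (share 65.8%), and leaving out WT control replicate 2 gave 6 and 34 (85.0%). Leaving out the first DEK KO library gave 10 and 51 (83.6%), and leaving out the second gave 8 and 50 (86.2%). Over all regions the KO-only share was 70.9% with the full lists. In these 5 settings, in the order given, it was 56.6%, 52.1%, 54.7%, 72.0% and 78.6%. The DEK KO lists were longer. Regions called in member windows numbered 330 and 348 in the WT controls and 380 and 377 in DEK KO, a ratio of 1.12 beside 1.09 over windows of all genes. Another 302 regions (69.3%) were called in all 4 lists, against 53.7% for other chromosome 19 genes.

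Most KO-only regions were weak. Ranked by the lower of the 2 percentiles, their median was 18.8 and 1 of 24 lay above 50 (4.17%), against a median of 21.6 and 10.1% over all KO-only regions. Of the 24, 17 lay inside a gene, 5 in a flank, 1 at a 3′ end and 1 at a start. The strongest lay inside ZNF473 (chr19:50039575-50040439), 8.34 kb from its start, with percentiles of 71.7 and 81.6 and fold enrichments of 9.29 and 13.2 in DEK KO replicates 1 and 2. ZNF473 takes part in the processing of histone messenger RNA. The next lay 4.69 kb upstream of ZNF844 (chr19:12059534-12060044), with percentiles of 49.8 and 59.1.

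A region at a gene end of ZNF28 that also overlaps ZNF600 (chr19:52821620-52821876) had percentiles of 45.2 and 42.2. WT control replicate 2 had a separate weak peak, at percentile 10.2, near an end of ZNF28, so the gene itself has no KO-only start. A region 3.74 kb upstream of ZNF628 (chr19:55472542-55472879) had 40.1 and 55.4, with low fold enrichments of 2.90 and 3.69. ZNF536, a repressor of neuronal differentiation, had the most regions of any member, with 17, of which 2 were in all 4 lists and 3 were KO-only, and no start region. Its count comes with a long gene: ZNF536 spans 488 kb, where the median spans of the clusters were 4.08 to 38.6 kb. Its KO-only regions had percentiles of 38.3 and 44.8 (chr19:30253481-30254060), 34.5 and 44.8 (chr19:30344543-30345012), and 11.9 and 29.9 (chr19:30419750-30420063). ZNF69 and ZNF83 followed with 8 regions each, in spans of 92.4 and 78.1 kb.

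ZNF805 held a KO-only region (chr19:57253679-57254252) with percentiles of 48.3 and 36.4. One within ZNF700 that also overlaps ZNF69 (chr19:11930870-11931502) had 30.4 and 39.4. ZNF91 held one at 40.5 and 28.4 (chr19:23318234-23318630), 76.8 kb from its start. Both WT-only regions lay in the cluster from ZNF653 to ZNF791. The one inside ZNF563 (chr19:12331340-12331696) had percentiles of 10.7 and 28.1, and the one at the 3′ end of ZNF44 (chr19:12224747-12225219) had 9.35 and 46.7. Between 10 and 20 kb beyond the spans, just outside the windows, 67 further regions held 6 KO-only and 2 WT-only.

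The widest genotype differences were at regions that all libraries called but that lay away from any start. There were 98 such regions. Both DEK KO percentiles were higher at 34 (34.7%), against 31.1% of all regions called in all 4 lists, and both were lower at 21 (21.4%), against 19.2%. The surplus of higher regions depended on the scale: 23 were higher and 25 lower with lists of equal length, and 26 and 24 with percentiles of fold. Shares over all regions called in all 4 lists were not computed on these scales. For start regions of all genes, 22.7% higher and 16.0% lower became 14.55% and 24.34% with equal lengths. With fold they became 19.04% and 16.39%. Whether the counts away from starts follow such a shift was not tested. The regions described next were chosen after their values were seen. A region inside ZNF577 that also overlaps FPR3, a formyl peptide receptor gene (chr19:51807043-51807799), had percentiles of 31.1 and 26.1 in the WT controls and 80.7 and 75.5 in DEK KO, with fold enrichments of 5.70 and 4.72 against 10.2 and 10.1. It lies 80.2 kb from the ZNF577 start, whose rank was also higher in both DEK KO lists.

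A region inside ZNF426, 6.01 kb from its start (chr19:9531855-9532630), had 52.3 and 22.4 against 78.3 and 83.3. One inside ZNF823 (chr19:11732853-11733254) had 10.6 and 12.3 against 46.8 and 52.8. In the other direction, a region inside ZNF714 (chr19:21091858-21092470) had 44.8 and 40.2 in the WT controls and 16.8 and 6.22 in DEK KO, and it was not called in every list once the lists had equal length. One inside ZNF83 (chr19:52635775-52636463) had 71.0 and 60.7 against 42.7 and 40.5. The ZNF577, ZNF426, ZNF823 and ZNF83 differences kept their direction with equal lengths, with fold and without any single library. Without DEK KO replicate 1 and without WT control replicate 1, the 21 lower regions became 33 and 37. The 34 higher regions became 46 and 41 in the same settings, where fewer lists must agree. Shares over all regions called in every remaining list were not computed there.

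Genes of the silencing machinery with which these proteins act were read the same way. Of a list of 28, which includes DEK itself, a start region was called in all 4 lists for 27, where 57.1% of all genes had one. Both DEK KO percentiles were higher for 6 of the 27, near the 22.7% of all genes, both were lower for 2, where all genes had 16.0%, and 19 overlapped, with a median difference of 0.26 points beside 0.40 over all genes. The corepressor gene TRIM28 had percentiles of 95.8 and 98.4 in the WT controls and 93.1 and 96.4 in DEK KO, and SETDB1 had 82.7 and 81.3 against 82.5 and 82.7. Both overlapped. TRIM28 has no listed start, so its value may come from either gene end. DEK, the gene that was knocked out, is among the 6 higher genes and had the largest difference, with 11.9 and 24.1 against 39.5 and 57.6. Where the DEK guides cut was not analysed here. EHMT1, a histone H3K9 methyltransferase gene, had 63.8 and 54.2 against 68.7 and 75.0. EHMT2, TASOR and H3-3A had differences of −12.2, −7.60 and −7.18 points and DNMT1 one of 7.34, but the genotypes overlapped at all of these.

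Among the genes of HP1 proteins, CBX1 was higher in both DEK KO lists, at 83.5 and 86.3 against 91.1 and 96.2. CBX3 was lower in both, at 94.1 and 95.2 against 89.5 and 84.9. CBX5, the remaining HP1 gene, was among the higher 6, together with SUV39H2 and H3-3B, which encode an H3K9 methyltransferase and the histone variant H3.3. MORC2, which acts with the HUSH silencing complex, was lower, at 79.4 and 76.2 against 70.6 and 74.2. UHRF1, a DNA methylation cofactor, was called in 3 of the 4 lists, with 18.1 in WT control replicate 1 and 20.2 and 38.4 in DEK KO.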

How the data were processed

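ATAC-seq peak lists of 4 libraries of the 786-O line were used as deposited, 1 list per library on GRCh38. Per the submitters' processing notes, the tools were MACS2 2.2.7.1, Bowtie2 2.2.5, cutadapt 1.18, ChIPseeker 1.32.1, SAMtools 1.7, DiffBind 3.6.5, Picard 2.26.9 and deepTools 3.5.1. Their roles, their settings and any shift of reads for the transposase are not given there. The labels' extraction text is about RNA, although the series is ATAC-seq. The authors' deposited columns are a score, a fold enrichment (ratio) at the summit, −log10 p and −log10 q values, and a summit offset. The lowest deposited −log10 q was 1.30 to 1.32, a q-value limit near 0.05.

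Peaks on chromosomes 1 to 22 and X were merged over the 4 lists at 1 bp. Percentiles of −log10 p were taken within each list. Starts, gene spans and promoters came from RefSeq (GRCh38.p14); all 250 members matched and 219 had a listed start. Promoters were aligned globally with Biopython 1.88 (identity is matches over alignment columns). Other steps used Python 3.11.15, numpy 2.4.6, pandas 2.3.3, scipy 1.17.1 and matplotlib 3.10.9. The calling of start regions was tested on simulated peaks. The members and lists were chosen with earlier results of these data known. The named members were those of the 8 highest-ranked KO-only and WT-only regions, the 6 largest differences in each direction among members whose genotypes did not overlap, the 4 highest and 4 lowest starts, up to 10 with no start region, the 3 with most regions, and ZNF274, ZNF91, ZNF93, ZNF331 and ZNF175. From the silencing list they were genes not called in every list and the 3 largest separated differences in each direction. TRIM28, SETDB1 and other genes outside this rule were added after their values were seen. Protein features were not analysed here. Depth per library is unknown, so precision rests on the 2 replicates of each genotype.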

Additional observations from a re-analysis of the deposited data

How the results depend on the processing

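The number of members with a start region in every list kept its size under all alternatives run, including a start distance of 200 bp (200 members), −log10 q of at least 5 (199) and lists of equal length (200). The shares over all genes were 51.22%, 55.39% and 56.78% in that order. With lists of equal length, WT-only regions numbered 4, the median start difference was −0.759 points, and 30 of 200 members were higher and 43 lower. Over all genes 14.55% were higher and 24.34% lower. With percentiles of fold the median was −1.17 points, with 31 of 201 members higher and 44 lower. All genes had 19.04% higher and 16.39% lower on that scale. The cause of these reversals was not tested; the equal-length lists drop the weakest peaks of the longer lists. Leaving out each library in turn gave 27 to 51 KO-only regions, 6 to 14 WT-only regions, a KO-only share of 65.8% to 86.2%, 201 to 204 members with a start in every remaining list, 76 to 97 higher members and 40 to 68 lower members, since fewer lists must agree. In the same settings 9.62% to 17.35% of all regions were KO-only and 4.73% to 9.06% WT-only, a KO-only share of 52.1% to 78.6%. A start region in every remaining list was called for 57.62% to 57.81% of all genes. Of all genes called in every remaining list, 33.1% to 44.2% were higher and 24.5% to 35.2% lower. The median start difference of the members ranged from −0.103 without WT control replicate 1 to 1.74 without WT control replicate 2. With clusters chained at 500 kb there were 10 clusters, and the lowest share of open starts was 60%, in the cluster from ZNF302 to ZNF792 (3 of 5). The uncalled run then fell into a cluster from ZNF101 to ZNF254, with 26 of 37 starts open (70.3%).

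Same-numbered libraries share only a number. Averaging the differences of same-numbered pairs gives each member's unpaired difference by arithmetic. Its median, 0.699 points, was thus fixed in advance and checks nothing. The pair medians were 1.55 and 0.455, and the smallest two-sided p over 2 pairs is 0.5. Counting each start region once (190 members) or using listed starts alone (182), both chosen after seeing the data, left 19 and 21 members lower and 50 and 47 higher. Over all genes called in every list, 15.94% and 16.21% were lower and 23.19% and 22.36% higher in these settings. Of 81 alternative values, 55 stayed within their bounds, 23 moved and 3 reversed. The bounds were wide: KO-only counts of 24 and 17, and lowest cluster shares of 28.6% and 60%, were treated as unchanged. Only the median difference could be labelled reversed. The change from 50 higher and 21 lower members to 30 and 43 was thus labelled moved. The pair average, fixed by arithmetic, was among the 55. Depth is unknown, so an uncalled start is not shown to be closed; the 2 replicates per genotype limit every comparison.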

Other observations

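Further long intervals of chromosome 19 without a region in any list lay outside the uncalled run of zinc finger genes. One from 56601799 to 57172243 (0.570 Mb) held ZNF835 and 7 genes outside the family, among them PEG3, ZIM2 and USP29 of a known imprinted domain. Another from 54523824 to 55006009 (0.482 Mb) held 15 genes and no member, mostly LILR and KIR receptor genes of the immune system. Both intervals are given as values, with no test.

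Among members near the border of being called, ZNF556 had no start peak in WT control replicate 1, a percentile of 10.2 in WT control replicate 2, and 42.6 and 45.4 in DEK KO. ZNF580 had no start peak in WT control replicate 1, 12.7 in WT control replicate 2, and 23.4 and 24.1 in DEK KO. ZNF763, ZNF575 and ZNF284 were each called in both controls and in 1 DEK KO list. ZNF587B was called in WT control replicate 2 at 22.4 and in DEK KO replicate 1 at 2.86.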
